A study of Mus musculus with 9 samples.

Results

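Transcripts of 10 genes that encode feedback inhibitors of MAP kinase signalling were followed in mouse CD8 T cells: the Sprouty genes Spry1 and Spry2, the Sprouty-related genes Spred1 and Spred2, and the dual-specificity phosphatase genes Dusp1, Dusp2, Dusp4, Dusp5, Dusp6 and Dusp10. They were chosen by gene symbol and make up 10 of the 55011 genes counted and 10 of the 10235 genes with enough counts to be tested. Naive CD8 T cells from the spleen of wild-type (WT) mice were activated with plate-bound antibodies to CD3 and CD28 (4 µg/mL) over 6 h. A control group had no further addition, and the other 2 groups had D-2HG or L-2HG, each at 20 mM, in the medium from the moment of activation. These compounds are the enantiomers of 2-hydroxyglutarate: they have opposite configurations at the carbon bearing the hydroxyl, and the D form is made by mutant isocitrate dehydrogenase in some tumours. All 3 groups, control included, were stimulated, and unstimulated cells were not analysed here. Each group had 3 libraries, and the mice and their ages are not described in the sources used here.

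Stimulation of the T cell receptor reaches the kinase ERK through the adaptor Lat and the exchange factors Rasgrp1 and Sos, which load Ras, and through the kinases Raf and MEK. Sprouty proteins act between receptor and Ras to dampen this route, Spred proteins bring neurofibromin to the membrane where it inactivates Ras, and dual-specificity phosphatases remove the activating phosphates from the threonine and tyrosine of the MAP kinases ERK, p38 and JNK. Many of these genes are transcribed in response to the signal that their products turn off, so their transcripts are often read as a record of recent MAP kinase activity. Only transcript levels were analysed here, not protein or kinase phosphorylation.

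The libraries held between 562627 (L-2HG replicate 2) and 5731885 (control replicate 3) gene counts. Whether replicates are separate cultures or animals is not stated, so each p-value sets a difference against the spread between these libraries, which may be technical. In bulk RNA, fewer cells of a type and less RNA per cell cannot be told apart. All 6 CD8 T cell markers listed were counted, at a summed 2917 to 4805 CPM in control, 2419 to 2785 CPM under D-2HG and 2189 to 3193 CPM under L-2HG, where CPM is counts per 1000000 of the scaled library total. All 5 B cell markers were counted as well, at 175 to 317, 134 to 135 and 134 to 195 CPM, while the summed CD4 T cell and NK cell markers stayed under 5 CPM in each library. The 3 dendritic cell markers summed to 5.21 to 8.24, 10.0 to 19.4 and 14.6 to 20.0 CPM in these groups. The 5 macrophage and monocyte markers summed to 4.50 to 6.78, 4.11 to 7.68 and 5.12 to 9.51 CPM, with Cd14 at 0 in control and L-2HG. Reads of the satellite-like genes Gm10800 and Gm10801 took 0.910 to 5.35% of counts in control, 3.79 to 17% under D-2HG and 6.71 to 24.4% under L-2HG, and mitochondrial transcripts took 2.23 to 3.06%, 0.992 to 1.87% and 1.19 to 1.83%. The part of these differences in the results below was not tested beyond the alternatives given beside them. With a single control left out, the number of genes called ranged from 384 (without replicate 3) to 4257 (without replicate 2) for D-2HG and from 65 to 4108 for L-2HG.

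Spry2 was the member that changed most, and the RNA of both Sprouty genes was lower with each compound. In the comparison of D-2HG with control, 3 of the 10 members fell (Spry1, Spry2 and Dusp6) and none rose, against 22.3% of all tested genes called, 10.5% lower and 11.8% higher. In the comparison of L-2HG with control, 2 of the 10 fell (Spry1 and Spry2) and none rose, against 17.7% called, 8.3% lower and 9.41% higher. Between D-2HG and L-2HG none of the 10 passed, against 0.303% of genes called, 0.254% lower and 0.0489% higher with D-2HG. Counted in either direction, the 3 and 2 of 10 were near the shares of all genes. The median log2 fold change of the members was -0.27 with D-2HG and -0.05 with L-2HG, where all tested genes had medians of 0.04 and 0.05. At an unadjusted p under 0.05 by edgeR, Dusp4 joined the genes lower with D-2HG, Dusp6 those lower with L-2HG, and Dusp10 was higher with L-2HG. Calls are by edgeR's quasi-likelihood test, adjusted by Benjamini-Hochberg over every gene tested, at 0.05, and both compounds were set against the same 3 control libraries.

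**Figure D1:**
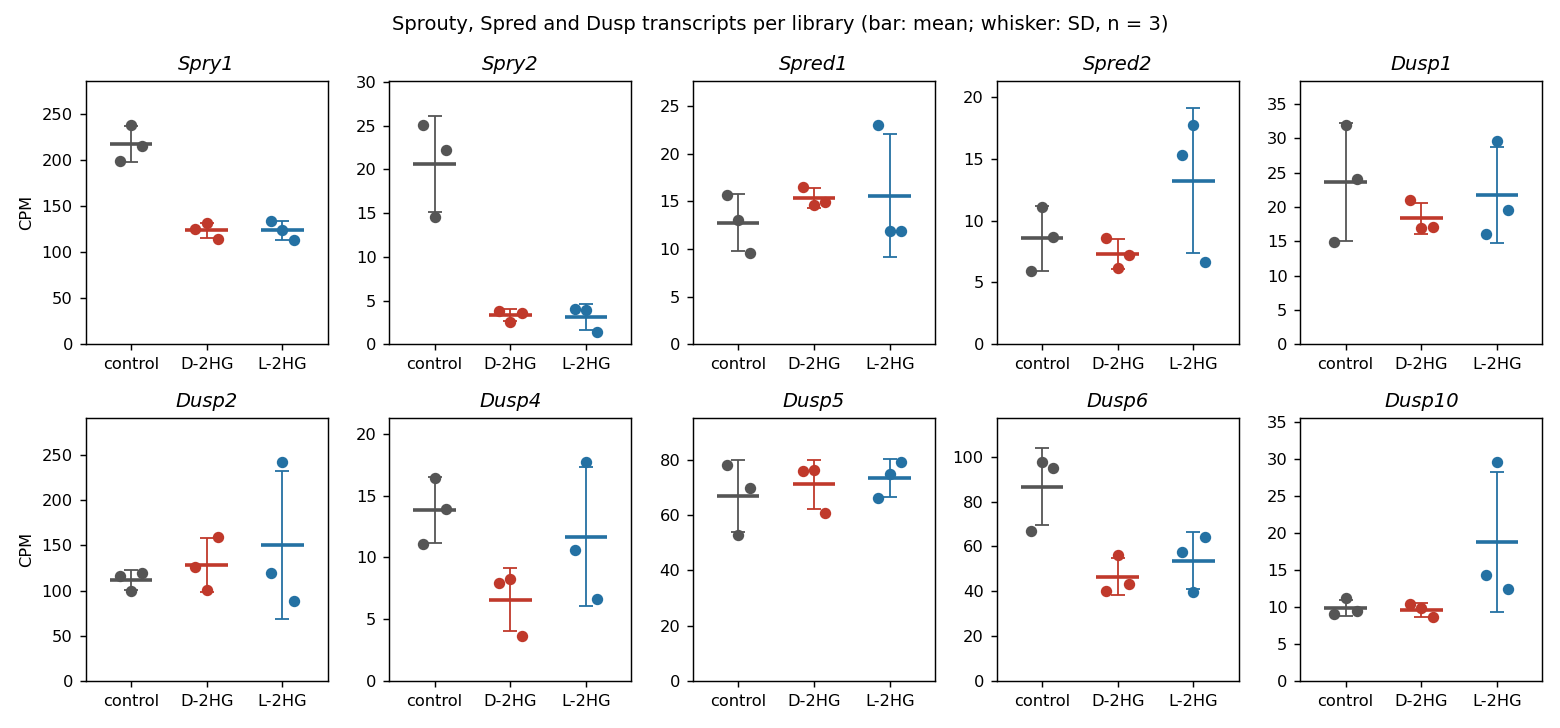
CPM (linear axis from 0) of each of the 10 genes in the 9 libraries, with a point per library, a bar at the mean and whiskers of 1 SD (n = 3 libraries per group). The Spry1 and Spry2 points of both compound groups lie below all control points, while those of Dusp5 share a range of 52.8 to 79.4 CPM.

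The sequences upstream of the transcription start are shown for the 3 genes that fell, Spry2, Spry1 and Dusp6, and for 2 that did not pass the test, Dusp1 and Dusp5, whose promoters hold matches to known signal-response motifs. Each is the 250 bases before the RefSeq start in GRCm38.p6, written 5′ to 3′ on the strand of the gene, in lower case with motif matches in capitals. They lie at chr14:105896820-105897069 (minus strand), chr3:37639697-37639946 (plus), chr10:99262981-99263230 (plus), chr17:26508473-26508722 (minus) and chr19:53528895-53529144 (plus).
Spry2: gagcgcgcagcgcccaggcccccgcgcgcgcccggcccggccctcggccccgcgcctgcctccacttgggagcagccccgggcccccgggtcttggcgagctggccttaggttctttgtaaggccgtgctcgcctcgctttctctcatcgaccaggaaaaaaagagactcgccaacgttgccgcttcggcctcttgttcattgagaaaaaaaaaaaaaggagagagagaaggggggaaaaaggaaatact
Spry1: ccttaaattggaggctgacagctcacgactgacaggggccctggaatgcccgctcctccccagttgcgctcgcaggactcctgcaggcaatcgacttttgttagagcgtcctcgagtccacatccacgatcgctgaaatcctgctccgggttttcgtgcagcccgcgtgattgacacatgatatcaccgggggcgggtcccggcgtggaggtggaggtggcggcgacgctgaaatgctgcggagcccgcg
Dusp6: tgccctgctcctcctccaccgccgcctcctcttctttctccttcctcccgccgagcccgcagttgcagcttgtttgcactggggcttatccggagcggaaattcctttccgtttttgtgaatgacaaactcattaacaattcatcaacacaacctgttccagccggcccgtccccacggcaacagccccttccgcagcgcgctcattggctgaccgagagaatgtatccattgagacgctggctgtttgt
Dusp1: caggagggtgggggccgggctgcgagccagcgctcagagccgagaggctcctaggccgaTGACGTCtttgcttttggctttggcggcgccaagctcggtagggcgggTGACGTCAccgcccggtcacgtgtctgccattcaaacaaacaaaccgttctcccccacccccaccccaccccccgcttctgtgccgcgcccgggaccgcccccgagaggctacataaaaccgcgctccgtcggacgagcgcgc
Dusp5: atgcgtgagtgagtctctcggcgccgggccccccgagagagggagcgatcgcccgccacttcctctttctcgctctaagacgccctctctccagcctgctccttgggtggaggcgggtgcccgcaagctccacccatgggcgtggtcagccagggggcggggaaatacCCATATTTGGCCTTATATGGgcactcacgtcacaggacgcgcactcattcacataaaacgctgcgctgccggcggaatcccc
Of the 10 genes, 9 were matched in the RefSeq promoter set, and Dusp4 was not. Both strands of the 9 sequences were searched for the cAMP response element (CRE) TGACGTC, the AP-1 site TGANTCA, the ETS-type site CCGGAAG, the EGR site GTGGGCG and the CArG box of serum response factor. These motifs were present in 2.78%, 6.75%, 6.91%, 7.02% and 1.47% of 32851 RefSeq promoters of the same length. Dusp1 held 3 CRE matches, which start 191, 143 and 142 bases before the transcription start, the last pair overlapping on opposite strands. Dusp5 held 2 CArG boxes, 82 and 72 bases before the start. Spred2 held 1 CRE match 53 bases before it, and the windows of Spry1, Spry2, Dusp6, Spred1, Dusp2 and Dusp10 held no match to these letters. The Spred1 window ends at position 117121070, upstream of the GENCODE start of the gene at 117121374. Bases after its RefSeq start were not found near the start of a GENCODE transcript, so this window may not be the promoter used. The Dusp5 and Spred2 windows run past the GENCODE start of the gene, and those of Dusp1 and Dusp10 lie inside the GENCODE gene. For these genes the bases after the RefSeq start were found near the start of a GENCODE transcript. A match is a description of the sequence, and binding was not measured.

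Spry2 encodes an inhibitor of receptor-driven Ras and ERK signalling that is induced by the same signalling. Its gene lies on mm10 chromosome 14 (105891947 to 105896819, minus strand), and counts over its exons were 106, 30 and 123 in the control libraries, 11, 11 and 8 in the D-2HG libraries and 11, 2 and 3 in the L-2HG libraries. Scaled to library size, Spry2 stood at 25.1, 14.5 and 22.3 CPM in control replicates 1, 2 and 3, at 3.78, 2.51 and 3.61 CPM with D-2HG and at 4.02, 3.95 and 1.43 CPM with L-2HG. Every compound library lay below every control library, and the compound groups overlapped each other. Spry2 fell 6.44-fold with D-2HG (log2 fold change -2.69, SE 0.38, 95% interval -3.47 to -1.90; edgeR adjusted p = 0.000185) and 6.95-fold with L-2HG (-2.80, SE 0.43, -3.69 to -1.90; adjusted p = 0.00159). Among the 10235 genes tested, its fitted change was the 12th lowest with D-2HG and the 2nd lowest with L-2HG. Spry2 passed the count filter through its control counts, so this order is a description and not further support for the fall.

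The depth behind the Spry2 level with a compound was small. Reads in sensory receptor genes, which T cells do not express, gave a background per base of exon in each library, and from it the reads predicted over Spry2 exons came to 0.361 to 83.5% of its counts. The highest share was in L-2HG replicate 3, where 3 counts stood beside 2.5 predicted. With that background subtracted from the counts Spry2 remained called with both compounds. The call with D-2HG held in 20 of 20 alternatives that gave a value, with log2 fold changes from -2.88 to -1.88. The call with L-2HG held in 19 of 20 and was lost with the satellite share as a covariate (log2 fold change -2.49, adjusted p = 0.104). Control replicate 2, the control with the largest satellite share, had the lowest control value of Spry2.

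Spry1, the other Sprouty gene tested, had the highest counts of the members in each control library. It lies on chromosome 3 (37639947 to 37644598, plus strand), and its exons share 710 bases with Gm42922 on the opposite strand, a gene counted 0 to 2 times per library. Spry1 stood at 199, 238 and 215 CPM in the control libraries, at 125, 131 and 114 CPM with D-2HG and at 134, 124 and 113 CPM with L-2HG. The control values did not overlap those of either compound, and the compound values overlapped each other. Spry1 fell 1.76-fold with D-2HG (log2 fold change -0.81, SE 0.18, 95% interval -1.19 to -0.43; edgeR adjusted p = 0.00755) and 1.75-fold with L-2HG (-0.81, SE 0.19, -1.20 to -0.42; adjusted p = 0.0143). Control replicate 2 had the highest Spry1 value of all libraries. The call with D-2HG was lost when counts were thinned to the smallest library and with the satellite share as a covariate (adjusted p = 0.0747 and 0.0605). The fitted value under the covariate was -0.82 with each compound, as large as reported. The call with L-2HG was lost under thinning and the covariate (adjusted p = 0.0866 and 0.31) and without control replicate 3 (0.071).

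The Spred genes were the least abundant members per length in control cells, and neither passed the test with either compound. Spred1, on chromosome 2, stood at 15.6, 13.1 and 9.59 CPM in control, 16.5, 14.6 and 14.9 CPM with D-2HG and 23.0, 11.8 and 11.9 CPM with L-2HG. Its ranges overlapped in each comparison, with log2 fold changes of 0.27 (95% interval -0.36 to 0.91) and 0.39 (-0.28 to 1.06; edgeR adjusted p = 0.519 and 0.383). By limma-voom with quality weights Spred1 was called higher with both compounds (adjusted p = 0.036 and 0.0063), and without L-2HG replicate 1 its change with L-2HG was -0.12. Spred2, on chromosome 11, stood at 5.92, 11.1 and 8.69 CPM in control, 8.60, 6.17 and 7.22 CPM with D-2HG and 15.4, 17.8 and 6.66 CPM with L-2HG. The L-2HG range of Spred2 overlapped both other groups, with log2 fold changes of -0.20 (-1.0 to 0.59; adjusted p = 0.716) for D-2HG and 0.56 (-0.26 to 1.38; adjusted p = 0.303) for L-2HG. Predicted background reached 32.6% of the counts of Spred1 and 39.6% of those of Spred2 in single libraries.

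Dusp6, the cytoplasmic phosphatase that prefers ERK, was the phosphatase gene that fell. It lies on chromosome 10 (99263231 to 99267489, plus strand) and stood at 66.8, 97.9 and 95.2 CPM in control, 40.3, 56.2 and 43.3 CPM with D-2HG and 57.4, 39.5 and 64.2 CPM with L-2HG. The control libraries lay above all compound libraries, the nearest pair being 66.8 CPM in control replicate 1 and 64.2 CPM in L-2HG replicate 3. With D-2HG, Dusp6 fell 1.85-fold (log2 fold change -0.88, SE 0.23, 95% interval -1.36 to -0.41; edgeR adjusted p = 0.0142). With L-2HG the fitted value was -0.63 (-1.13 to -0.14) and did not pass (edgeR adjusted p = 0.0632), whereas DESeq2 and limma-voom called it (adjusted p = 0.0316 and 0.00358), as did edgeR without a count filter (0.0345) and without L-2HG replicate 3 (0.0462). The D-2HG call was lost without control replicate 3 (0.0815), D-2HG replicate 1 (0.0702) or D-2HG replicate 3 (0.0634) and with the satellite share as a covariate (0.195, at a log2 fold change of -0.76). Predicted background was at most 2.78% of Dusp6 counts in any library.

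Dusp1, Dusp2, Dusp4 and Dusp5 encode inducible nuclear phosphatases, of which Dusp5 is specific for ERK and the others act on ERK and on p38 or JNK to different degrees. None passed the test in any comparison. Dusp4, on chromosome 8, came nearest: it stood at 11.1, 16.5 and 13.9 CPM in control and at 7.91, 8.22 and 3.61 CPM with D-2HG, ranges that did not overlap. With L-2HG it stood at 10.6, 17.8 and 6.66 CPM, overlapping both other groups. The log2 fold change of Dusp4 was -1.0 with D-2HG (95% interval -1.76 to -0.25; edgeR adjusted p = 0.0517) and -0.41 with L-2HG (-1.22 to 0.39; adjusted p = 0.446). In 6 of 19 alternatives the D-2HG value passed: limma-voom (0.00546), DESeq2 size factors (0.0443), the replicate number as a block (0.0339), a fit of the groups compared (0.0488), and without L-2HG replicate 2 (0.0349) or replicate 3 (0.0467). DESeq2's own test did not call it, and predicted background reached 23.5% of its counts.

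The other 3 nuclear phosphatase genes had control and compound values that overlapped. Dusp2, a phosphatase abundant in activated lymphocytes, stood at 117, 99.3 and 119.8 CPM in control, 126, 100.2 and 159 CPM with D-2HG and 119.9, 243 and 88.5 CPM with L-2HG. L-2HG replicate 2, the library with the fewest counts, held the highest Dusp2 value and L-2HG replicate 3 the lowest. The log2 fold changes were 0.19 (95% interval -0.39 to 0.77) and 0.36 (-0.24 to 0.95; edgeR adjusted p = 0.633 and 0.371), and the L-2HG value was -0.12 without replicate 2 of that group. Dusp5 stood at 78.1, 52.8 and 70.0 CPM in control, 76.0, 76.5 and 61.0 CPM with D-2HG and 66.2, 75.0 and 79.4 CPM with L-2HG. Its intervals were among the narrowest, -0.35 to 0.52 around 0.08 for D-2HG and -0.33 to 0.57 around 0.12 for L-2HG (adjusted p = 0.793 and 0.712). In its exons 547 bases are shared with AC137853.2 on the opposite strand. That symbol is not among the genes counted, so reads of AC137853.2 in the Dusp5 counts could not be examined. Dusp1, an immediate early gene, stood at 14.9, 32 and 24.1 CPM in control, 21.0, 16.9 and 17.2 CPM with D-2HG and 16.1, 29.6 and 19.5 CPM with L-2HG. The control libraries of Dusp1 already spanned all compound values, and the log2 fold changes were -0.34 (-0.94 to 0.26) and -0.22 (-0.87 to 0.43; adjusted p = 0.394 and 0.635).

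Dusp10 encodes a phosphatase that acts on p38 and JNK and not on ERK. It stood at 9.0, 11.1 and 9.41 CPM in control, 10.3, 9.82 and 8.58 CPM with D-2HG and 14.3, 29.6 and 12.4 CPM with L-2HG. All L-2HG libraries lay above all others, a direction opposite to that of Spry1, Spry2 and Dusp6. The log2 fold change with L-2HG was 0.75 (95% interval 0.04 to 1.47; edgeR adjusted p = 0.117), and limma-voom alone called it (adjusted p = 0.0346). With D-2HG the value was -0.02 (-0.70 to 0.67; adjusted p = 0.975).

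Groups without overlap were common among all genes, which bears on how these ranges read. With D-2HG, 4 of the 10 members lay wholly below control (Spry1, Spry2, Dusp4 and Dusp6), where 40% of all tested genes did not overlap control, 19.3% below it and 20.7% above. With L-2HG, 3 lay wholly below (Spry1, Spry2 and Dusp6) and 1 wholly above (Dusp10), where 31.2% of all tested genes did not overlap, 14.8% below and 16.4% above.

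**Figure D2:**
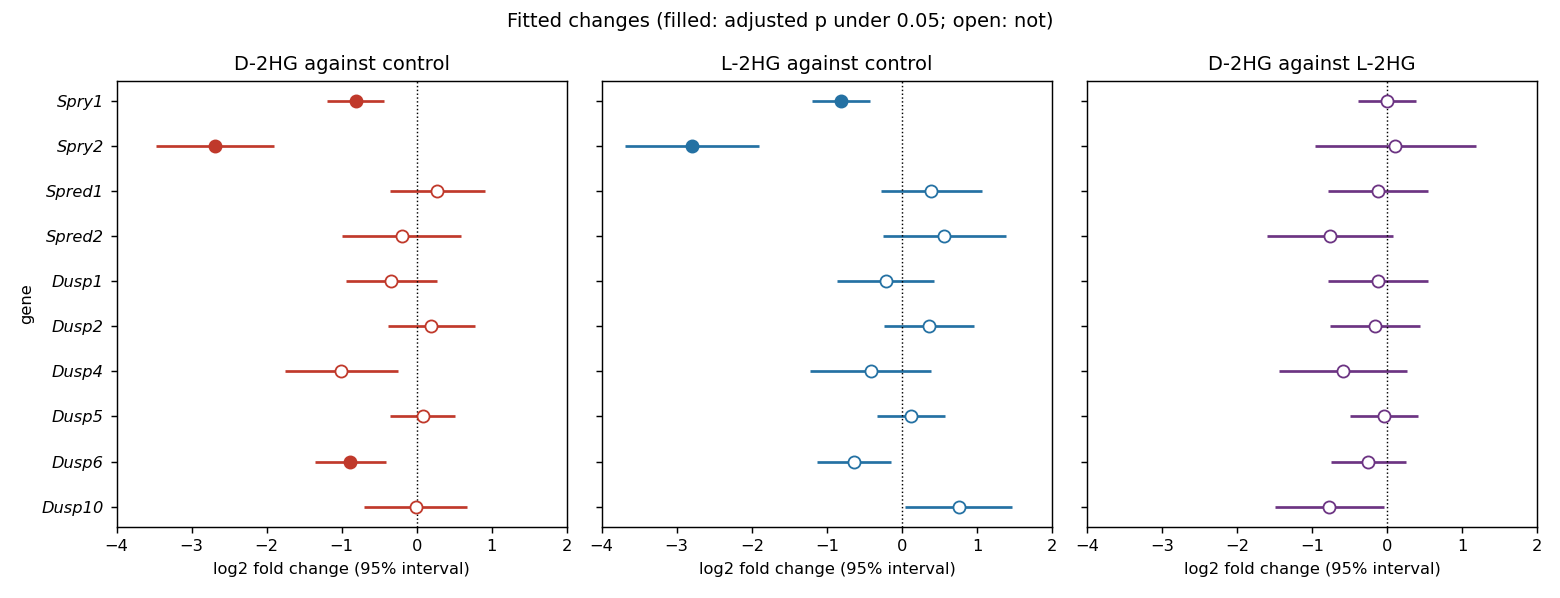
Fitted log2 fold changes of the 10 genes (points) with 95% intervals (lines) in a panel for each of the 3 comparisons, filled where the adjusted p is under 0.05. Spry2 lies at -2.69 and -2.80 against control and at 0.11 between the compounds, and no point is filled in the last panel.

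The enantiomers were compared at the same dose and time, 20 mM for 6 h, as 1 pair of compounds across the 10 genes. None of the 10 passed by edgeR, DESeq2 or limma-voom, and the numbers with an unadjusted p under 0.05 were 1, 0 and 2. The intervals were of different widths, so the data limit a difference more closely for some genes than for others. The Spry1 difference of D-2HG from L-2HG was bounded between -0.39 and 0.39 on the log2 scale, the Dusp5 difference between -0.49 and 0.41 and the Dusp6 difference between -0.75 and 0.25. For Spry2, with few counts in either group, the value was 0.11 and the interval ran from -0.96 to 1.18 (edgeR adjusted p = 0.989). Dusp10 was the 1 member whose D-2HG and L-2HG values did not overlap, as in 15.9% of all tested genes (8.13% lower and 7.77% higher with D-2HG). Its difference was -0.77 (-1.49 to -0.05; edgeR adjusted p = 0.680, unadjusted p = 0.0379). Spred2 and Dusp4 had differences of -0.77 (-1.61 to 0.07) and -0.59 (-1.44 to 0.26; adjusted p = 0.767 and 0.844). The fitted value was below 0 for 9 of the 10 members and for 5022 of the 10235 tested genes, with medians of -0.14 and 0.0075. Of these members, Spry1 lay at -0.0016 and Dusp5 at -0.039. The sign changed under some alternatives for Spry1, Spred1, Dusp1, Dusp2 and Dusp5, so the count of signs does not show a shared shift. These p-values do not show that the enantiomers act alike.

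Per kilobase of exon, the order of the members was led by Spry1 and Dusp2. In control cells Spry1 stood at 74.8 ± 6.72 CPM per kilobase, Dusp2 at 55.9 ± 5.49, Dusp6 at 27.7 ± 5.50 and Dusp5 at 27.1 ± 5.23 (SD, n = 3 here and below). Below these came Spry2 at 9.89 ± 2.62, Dusp1 at 7.15 ± 2.58, Dusp4 at 5.05 ± 0.976, Dusp10 at 3.24 ± 0.375, Spred1 at 1.88 ± 0.447 and Spred2 at 1.86 ± 0.566 CPM per kilobase. Neighbours in this order that overlapped were Dusp6 and Dusp5, Spry2 and Dusp1, Dusp1 and Dusp4, and Spred1 and Spred2. With D-2HG the leading levels were 64.1 ± 14.8 for Dusp2, 42.5 ± 2.93 for Spry1, 28.8 ± 3.58 for Dusp5 and 14.9 ± 2.7 for Dusp6, each apart from the next. With L-2HG the same 4 genes led at 75.1 ± 40.7, 42.5 ± 3.63, 29.7 ± 2.73 and 17.1 ± 4.08, and the Dusp2 and Spry1 ranges overlapped. Spry2 went from place 5 of 10 in control to place 10 with each compound, at 1.58 ± 0.331 and 1.5 ± 0.708 CPM per kilobase, where it overlapped its neighbour (Spred2 with D-2HG, Spred1 with L-2HG).

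The genes most like each called member were those with the smallest root mean square difference of log2 CPM over the 9 libraries, each gene centred on its own mean. For Spry1 they were Trir (0.119) and Herpud1 (0.123), and Herpud1 stood at 131, 74.7 and 80.8 CPM in control, D-2HG and L-2HG. For Spry2 they were Thg1l (0.557) and Ly6c2 (0.580), so that no tested gene came closer to the pattern of Spry2 than 0.557 log2 units. The spread of Spry2 itself was 1.26, where that of Spry1 was 0.394 and that of Dusp6 0.456. Spry2 had 2 to 11 counts in the compound libraries. Ly6c2 stood at 49.0, 17.6 and 18.4 CPM. For Dusp6 they were Mrps33 (0.192) and 1810014B01Rik (0.199), and none of the 6 is a member. All 10235 genes share these libraries and their depth, and the likeness is a description.

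Other genes of the MAP kinase pathways were taken from 4 lists, and most of those tested did not pass. Of 22 other inhibitors and feedback regulators 14 were tested: 4 rose and 1 fell with D-2HG (median log2 fold change 0.41), and 4 rose and 1 fell with L-2HG (0.51), beside medians of 0.04 and 0.05 over all tested genes and the shares called above. Dusp16, a phosphatase for JNK and p38, rose from 6.30 ± 3.08 CPM to 18.7 ± 2.76 and 17 ± 4.68 (log2 fold change 1.66 and 1.44; edgeR adjusted p = 0.00598 and 0.0203). Nf1, neurofibromin and the partner of Spred proteins, rose from 9.93 ± 5.33 CPM to 20.8 ± 2.39 and 27.4 ± 3.54 (1.16 and 1.55; adjusted p = 0.0181 and 0.0104). Rasal3, a Ras GTPase-activating protein of lymphocytes, rose from 91.9 ± 38.2 CPM to 180.0 ± 0.708 and 179.7 ± 15.9 (0.98 and 0.99; adjusted p = 0.0111 and 0.016). Pebp1, an inhibitor of Raf, fell with both compounds, Errfi1 rose with D-2HG and Rasal1 with L-2HG. The other Sprouty genes were too low to test, with 0 to 5 counts of Spry3 and 0 to 17 of Spry4 per library.

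All 24 genes of the Ras to ERK cascade were tested, of which 3 rose and 2 fell with D-2HG (median 0.17), and 5 rose and 2 fell with L-2HG (0.13), beside 22.3% and 17.7% of all tested genes called. Shoc2, a scaffold that promotes Raf activation, rose from 20.6 ± 2.21 CPM to 59.5 ± 8.41 and 51.1 ± 19.9 (log2 fold change 1.53 and 1.22; edgeR adjusted p = 0.00102 and 0.0112). Rasgrp1, the Ras exchange factor of T cells, rose from 43.0 ± 7.79 CPM to 96.7 ± 29.6 and 149 ± 106 (1.17 and 1.71; adjusted p = 0.0409 and 0.0164). Its L-2HG values were 91.0, 270.5 and 84.2 CPM, and without replicate 2, the highest, the fitted value with L-2HG was 1.03 (edgeR adjusted p = 0.0222). Sos2, a further exchange factor, rose from 5.28 ± 3.41 CPM to 16.7 ± 1.25 with L-2HG (1.79; adjusted p = 0.0152) and stood at 10.1 ± 3.74 with D-2HG (1.09; adjusted p = 0.0608). Braf rose and the adaptor Lat and the kinase Araf fell with both compounds, and Rps6ka3 rose with L-2HG. Map2k1, which encodes a MEK of the cascade, had log2 fold changes of 0.00 with D-2HG and -0.14 with L-2HG and was not called.

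In the p38 and JNK cascades 19 of 22 genes were tested: 3 rose and none fell with D-2HG (median 0.26), and 2 rose and 1 fell with L-2HG (0.20). The 3 of 19 in each comparison stand beside 22.3% and 17.7% of all tested genes called. Map3k1, a kinase upstream of JNK, rose from 22.7 ± 9.29 CPM to 75.8 ± 18.2 and 67.5 ± 23.5 (log2 fold change 1.78 and 1.56; edgeR adjusted p = 0.00116 and 0.00799). Map3k4 rose from 4.88 ± 0.789 CPM to 12.5 ± 6.09 and 11.7 ± 2.03 (1.30 and 1.29; adjusted p = 0.0221 and 0.0351). Gadd45g, an activator of Map3k4, fell from 7.22 ± 3.52 CPM to 1.85 ± 1.07 with L-2HG (-2.08; adjusted p = 0.0325) and stood at 2.81 ± 1.04 with D-2HG (-1.33; adjusted p = 0.0616). Map3k11 rose with D-2HG.

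In the list of transcription targets of ERK, which also holds the transcription factors Elk1, Elk4 and Srf, 15 of 20 genes were tested. Of these, 2 rose and 2 fell with D-2HG (median 0.04), and 3 rose and 1 fell with L-2HG (0.29). The 4 of 15 in each comparison stand near the 22.3% and 17.7% of all tested genes called. Ier3 rose from 14.4 ± 2.18 CPM to 38.3 ± 6.26 and 29.9 ± 1.46 (log2 fold change 1.40 and 1.04; edgeR adjusted p = 0.00122 and 0.0152). Fosl2 rose from 52.0 ± 3.98 CPM to 89.6 ± 12.2 and 109.7 ± 19.4 (0.79 and 1.06; adjusted p = 0.0143 and 0.00799). Fos fell from 48.3 ± 3.92 CPM to 20.2 ± 6.99 with D-2HG (-1.22; adjusted p = 0.00483) and stood at 28.3 ± 5.96 with L-2HG (-0.71; adjusted p = 0.0614). Srf fell with D-2HG, Egr3 rose and Jun fell with L-2HG, and Egr1, Egr2, Junb, Nr4a1 and Myc did not pass with either. Etv4 and Etv5, ETS factors that often move with Spry and Dusp6 transcripts in other tissues, had at most 4 and 14 counts in a library and were not tested. Between D-2HG and L-2HG none of the 72 tested genes of the 4 lists passed by edgeR, none of the 69 that DESeq2 tested passed, and 1 of 72, Egr1, passed by limma-voom (at an unadjusted p under 0.05, 6, 6 and 18).

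**Figure D3:**
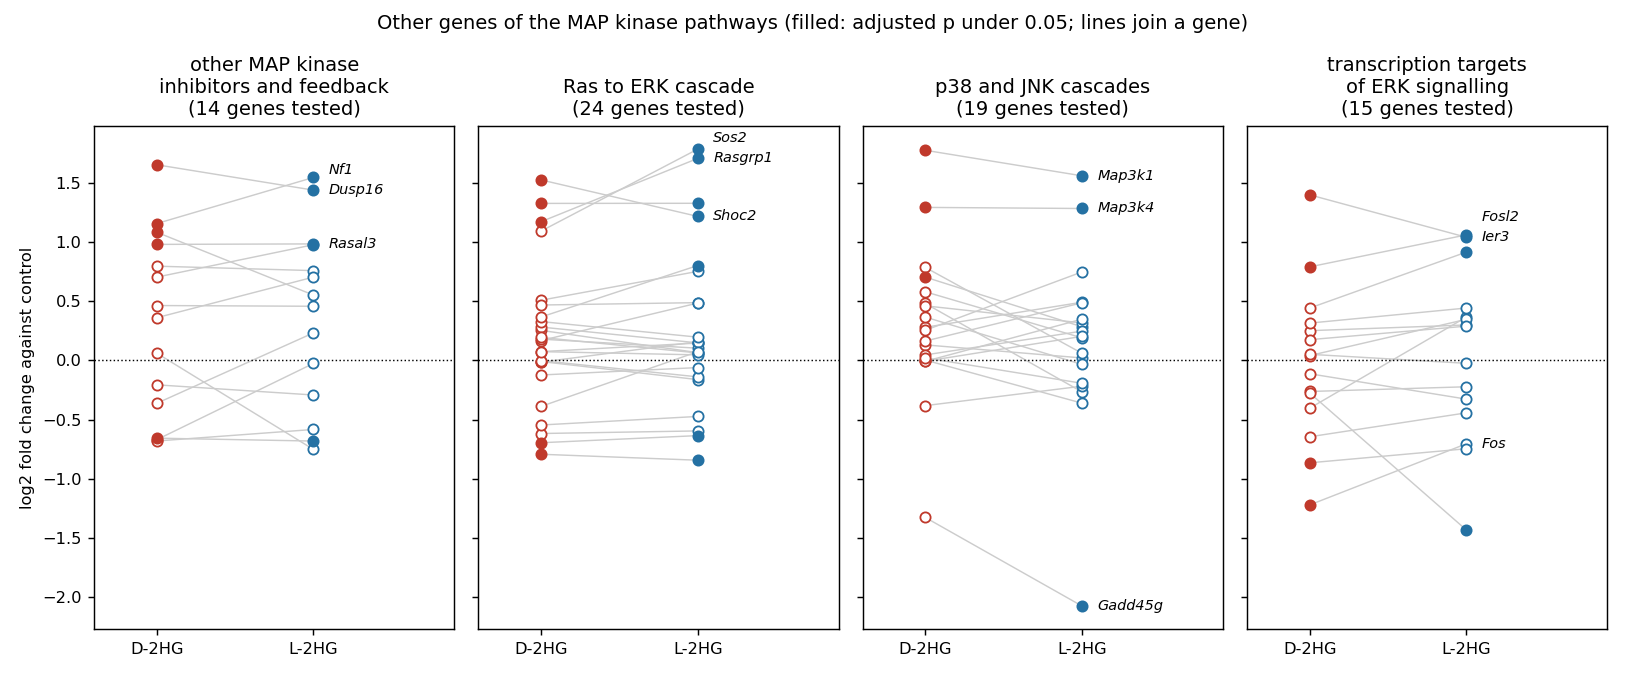
Log2 fold change from control under each compound for every tested gene of the 4 lists, a line joining the values of a gene and filled points marking an adjusted p under 0.05. Each panel holds filled points above 0, up to 1.78 with D-2HG (Map3k1) and 1.79 with L-2HG (Sos2). Each also holds filled points below 0, down to -1.22 with D-2HG (Fos) and -2.08 with L-2HG (Gadd45g), and most points are open.

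The calls of most of these named pathway genes rested more on single libraries than those of Spry2 did. With D-2HG, Shoc2, Map3k1, Fos and Ier3 kept their calls whichever library was left out. Of the 10 named genes called with D-2HG, 6 were lost without control replicate 3 (adjusted p 0.0533 to 0.132) and 5 without control replicate 1 (0.059 to 0.16). Of the 11 called with L-2HG, 11 were lost without control replicate 3 (0.0619 to 0.121), 7 without control replicate 1 (0.0555 to 0.166) and 6 without L-2HG replicate 1 (0.05 to 0.165). With the satellite share as a covariate 9 of 10 and 11 of 11 were lost, and the exception was Ier3 with D-2HG (adjusted p = 0.00944), a call held in 21 of 21 alternatives. Predicted background reached 36% of the counts of Dusp16, 38.8% of Nf1, 50.9% of Map3k4 and 33.7% of Gadd45g in a library. With it subtracted, Map3k4 lost its call with both compounds (adjusted p = 0.0522 and 0.135), and Dusp16 and Gadd45g lost theirs with L-2HG (0.0546 and 0.0681).

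**Figure D4:**
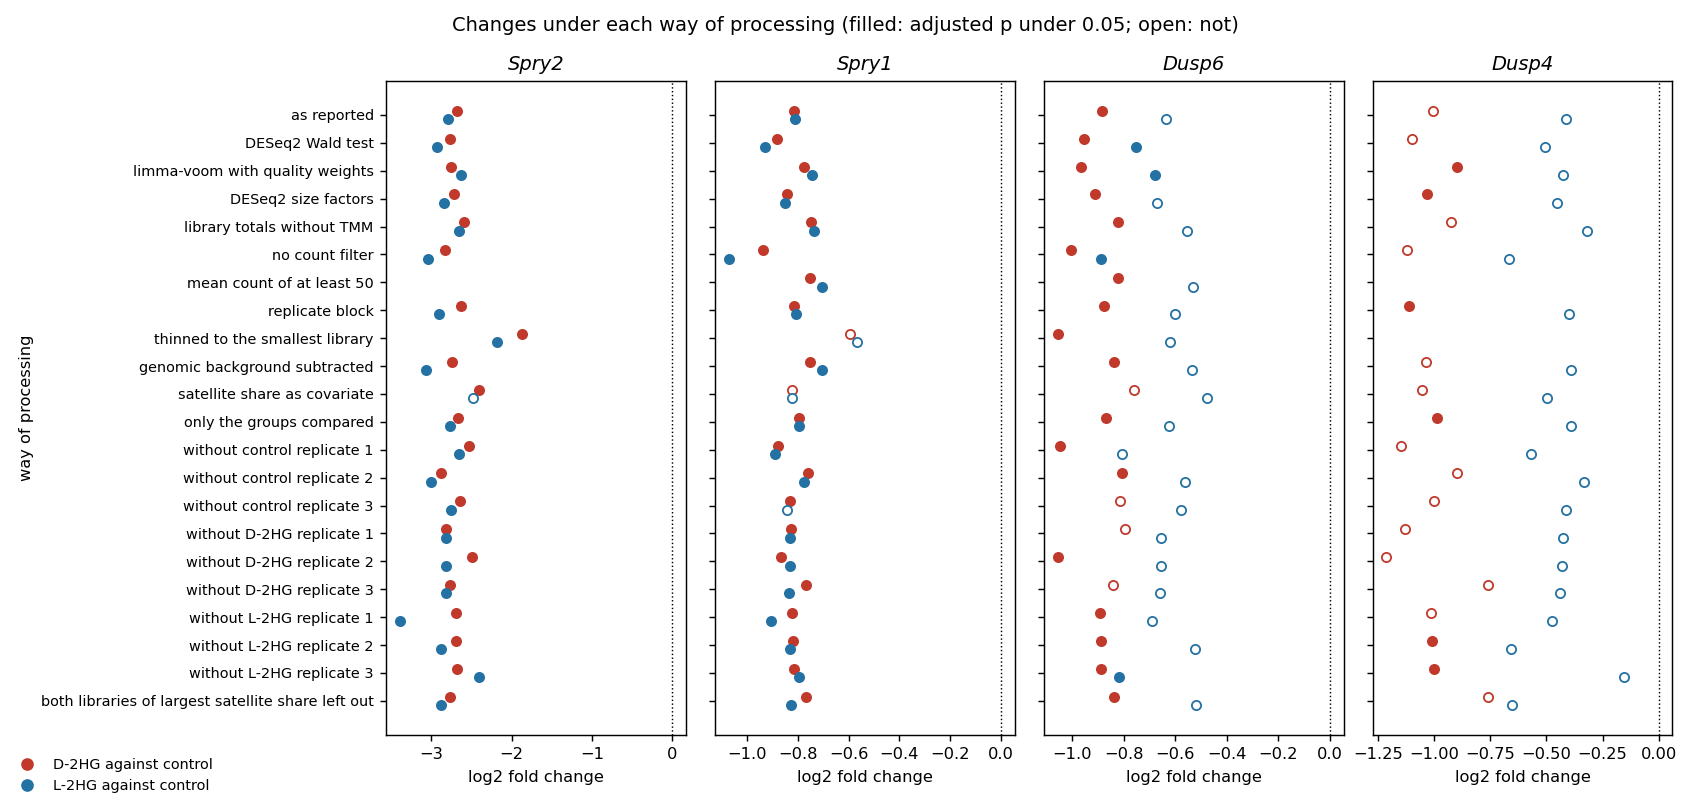
Log2 fold changes of Spry2, Spry1, Dusp6 and Dusp4 against control as reported (top row) and under each alternative way of processing, filled where the adjusted p is under 0.05, with a separate horizontal scale for each gene and no value for Spry2 and Dusp4 where they were not testable. All values lie below 0, and Spry2 with D-2HG is filled throughout while Dusp4 with L-2HG is open throughout.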

How the data were processed

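Polyadenylated RNA of 9 libraries, made by oligo(dT) priming, limited PCR and transposase tagmentation per the labels' protocols, was analysed from the authors' deposited table of raw counts per gene symbol. STAR 2.7.3a, featureCounts and genome build mm10 are named per the submitters' processing notes. Strand setting, handling of shared reads and annotation release are not given in the sources used here, so antisense reads cannot be told apart. The deposited table of normalized values was not used.

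The analysis used edgeR 4.0.16 in R 4.3.3. Genes passing filterByExpr (minimum count 10) were kept, 10235 of 55011, and scaled by TMM. All 9 libraries entered a single robust quasi-likelihood fit with 1 mean per group, which leaves 6 residual degrees of freedom. The F test of this fit gave the 3 comparisons, and p-values were adjusted by Benjamini-Hochberg over every gene tested in a comparison, with a threshold of 0.05. Each SE was derived from the test, as the size of the log2 fold change divided by the square root of the F statistic. Intervals are 95%, symmetric, from this SE and the t distribution, and unadjusted. Replicates differed by more than counting error (chi-square per degree of freedom 6.07 to 42.3), and the biological coefficient of variation was 0.21. The scripts were tested on simulated data. Exon lengths and positions came from GENCODE M21 and promoters from RefSeq. Background was the reads per base of exon in 1655 of 1743 sensory receptor genes, without the 5% of highest density. The 2075 symbols without a length had none subtracted.

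The members, the lists and the rule for named genes (the 10 members, the 3 genes of smallest adjusted p in either comparison with control per list, other called list members and the 2 genes most like each called member, from log2 CPM with 0.5 added) were chosen with earlier results of these data known. Alternatives were DESeq2 1.42.0, limma 3.58.1 (voom with quality weights), scaling by DESeq2 size factors or by plain library totals, the count filter left off or raised to a mean of 50, a block for the replicate number, counts thinned to the smallest total (562627), background subtraction, the log2 satellite share as a covariate, a fit of only the groups compared and each library left out. Leaving out both compound libraries of largest satellite share together was chosen after seeing the data. The values of 1 gene of the cascade list are not reported here.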

Additional observations from a re-analysis of the deposited data

How the results depend on the processing

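Leaving out each library moved the genes called between 384 and 4257 for D-2HG against control (2278 as reported), between 65 and 4108 for L-2HG (1812) and between 10 and 60 for D-2HG against L-2HG (31), and the members called with L-2HG to 1 at the lowest (without control replicate 3) of 2. Limma-voom called 5617, 5180 and 177 genes and 5 members with each compound, DESeq2 49 between the compounds, and thinning 722, 690 and 9 genes and 1 member with L-2HG. The satellite share as a covariate left 96, 8 and 76 genes, 1 member with D-2HG and 0 with L-2HG (4 and 2 at an unadjusted p under 0.05 by edgeR in that fit). Without a count filter 1341 genes were called with D-2HG, a mean count of at least 50 left 1195 and 1 member with L-2HG, Spry2 not being testable, background subtraction left 681, a fit of only the groups compared 427, and leaving out both satellite-rich libraries 1169, 560 and 13. The share of called genes that were higher was 52.9% and 53.1% as reported, 70.0% and 77.7% with library totals, which raised the median log2 fold change with L-2HG by 0.10, and 39.6% and 31.0% without a count filter. The cause of these moves was not tested.

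Same-numbered libraries correlated at -0.17 to 0.27, and 3 of 9 correlated best with their own number. With 3 libraries per group, unlike in depth and satellite share, these correlations cannot decide whether the replicate numbers pair the libraries. With the replicate number as a block 2314, 2284 and 35 genes and 4, 2 and 0 members were called, Dusp4 being the member gained.

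The following log2 fold changes, not called as reported (in parentheses), changed sign. With D-2HG, Dusp2 (0.19) was -0.30 with the satellite covariate. Dusp5 (0.082) was -0.059 with no count filter and -0.070 to 0.20 with a library left out. Dusp10 (-0.017) was 0.068 with limma-voom, 0.062 with library totals, 0.0096 with background subtraction, 0.0033 with only the groups compared, 0.042 with both satellite-rich libraries left out and -0.081 to 0.046 with a library left out. With L-2HG, Spred1 (0.39) was -0.12 to 0.59 with a library left out. Dusp2 (0.36) was -0.27 with the satellite covariate, -0.12 with both satellite-rich libraries left out and -0.12 to 0.58 with a library left out. Dusp5 (0.12) was -0.0092 with DESeq2, -0.16 with no count filter and -0.049 to 0.22 with a library left out. Between D-2HG and L-2HG, Spry1 (-0.0016) was 0.049 with DESeq2, 0.0073 with DESeq2 size factors, 0.14 with no count filter, 0.0014 with the satellite covariate, 0.060 with both satellite-rich libraries left out and -0.036 to 0.086 with a library left out. Spry2 (0.11) was -0.12 with limma-voom and -0.27 to 0.70 with a library left out. Spred1 (-0.12) was -0.31 to 0.38 with a library left out. Dusp1 (-0.12) was 0.082 with limma-voom, 0.0083 with no count filter, 0.096 with both satellite-rich libraries left out and -0.30 to 0.058 with a library left out. Dusp2 (-0.17) was 0.12 with both satellite-rich libraries left out and -0.39 to 0.30 with a library left out. Dusp5 (-0.039) was 0.011 with DESeq2, 0.069 with limma-voom, 0.10 with no count filter, 0.077 with both satellite-rich libraries left out and -0.10 to 0.086 with a library left out. Rasal3 (-0.0042) was 0.047 with DESeq2, 0.0042 with DESeq2 size factors, 0.13 with no count filter, 0.013 with thinning, 0.045 with the satellite covariate and -0.036 to 0.092 with a library left out. Rasgrp1 (-0.54) was -0.79 to 0.14 with a library left out. Map3k1 (0.22) was -0.0061 to 0.41 with a library left out. Map3k4 (0.0093) was -0.39 with limma-voom, -0.043 with library totals, -0.022 with the replicate block, -0.0055 with only the groups compared, -0.42 with both satellite-rich libraries left out and -0.36 to 0.31 with a library left out. Spry1 and Spry2 stayed negative against control in all alternatives that gave a value. Spry2 had 2 and 3 counts in L-2HG replicates 2 and 3. Its calls held when counts were thinned to the smallest library (edgeR adjusted p = 0.0355 and 0.0297). Thinning leaves L-2HG replicate 2, the smallest library, as it was and lowers the counts of the others. It therefore cannot test whether the Spry2 calls rest on these few counts.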

Other observations

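Some listed pathway genes without an edgeR call between the enantiomers had D-2HG and L-2HG values that did not overlap. So did 15.9% of all tested genes (8.13% lower and 7.77% higher with D-2HG). Those described here were picked after their values were seen. Rasa3, Nf1, Dok2, Sos2, Rps6ka1, Rps6ka3, Map3k5, Map2k3, Mapk9 and Ier3 of the lists did not overlap either. Egr1, an immediate early target of ERK, stood at 210.1 ± 39.1 CPM in control, 158 ± 29.0 CPM under D-2HG and 268 ± 51.2 CPM under L-2HG (SD, n = 3), a D-2HG against L-2HG log2 fold change of -0.77 (95% interval -1.22 to -0.33; edgeR adjusted p = 0.202). Jun, with L-2HG counts of 15, 0 and 6, stood at 10.0 ± 1.36, 8.35 ± 0.197 and 2.78 ± 2.74 CPM (1.16, 0.20 to 2.12; edgeR adjusted p = 0.583). Jun was called lower with L-2HG against control (edgeR adjusted p = 0.037). Dok1, an adaptor that restrains Ras signalling, stood at 23.6 ± 2.73, 24.6 ± 2.36 and 13.1 ± 2.85 CPM (0.82, 0.25 to 1.38; edgeR adjusted p = 0.398). Its L-2HG counts were 39, 5 and 32.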
